A study of Homo sapiens with 3 samples.

Results

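Circular RNAs from genes of the translation machinery were followed in 3 human pancreatic cell lines: PANC-1 and SW1990, both lines of pancreatic ductal adenocarcinoma (PDAC), and HPDE, a line of ductal epithelium that is not from a tumour. A gene was included when the SW1990 table named it with a symbol starting EIF or EEF and a digit, or as one of the cytosolic tRNA synthetases. This gave 28 of the 2418 host genes named there. A junction of PANC-1 or HPDE was counted for one of these hosts when it had the start or the end of an SW1990 junction of that host, or lay inside the interval those junctions span. The hosts had 68 distinct junctions of 17156 in all: 44 of 13341 in PANC-1, 42 of 3764 in SW1990 and 19 of 3370 in HPDE. Each line was sequenced as 1 library with no replicate. The labels name no genotype, drug or passage. The PDAC lines were kept in DMEM with serum, and HPDE in a serum-free keratinocyte medium with growth factor and pituitary extract, so line and medium cannot be told apart in any comparison with HPDE.

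A circular RNA forms when the end of an exon is joined backwards to the start of the same exon or of an earlier one. Reads over that back-splice junction tell the circle from the linear mRNA, and say nothing on their own about the amount of mRNA or protein. In initiation, the eIF4 factors bring mRNA to the ribosome, eIF3 holds the small subunit, and eIF2 delivers the initiator tRNA. In elongation, eEF1 and eEF2 move aminoacyl-tRNAs through the ribosome, and the tRNA synthetases charge each tRNA with its amino acid. Translation runs at a high rate in secretory pancreatic tissue and in growing tumour cells, and kinases such as GCN2 (EIF2AK4) and EEF2K slow it under stress.

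The hosts were 12 genes of initiation factors, 2 of elongation factors, 4 of regulators of these factors, 8 of synthetases, and EIF2C1 and EIF2C2. RefSeq lists EIF2C1 and EIF2C2 as synonyms of AGO1 and AGO2, which encode Argonaute proteins of small RNA silencing and not initiation factors. They met the rule through their older names and were kept as a group of their own, a split made after the data had been seen. Of the 20 synthetase symbols in the rule, the 8 found were AARS, DARS, FARSA, GARS, HARS, LARS, RARS and SARS.

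The junctions that carried the differences between lines are shown here as sequences, because several hosts kept an exon end in all lines and joined it to another exon. Each is written 5′ to 3′ as the last 20 bases of the downstream exon in lower case, followed in capitals by the first 20 bases of the upstream exon to which it is joined. The exons were found by matching the span of each junction in hg19 to exon pairs of the same gene in GENCODE release 29 (GRCh38), from whose transcripts the bases were read; they are the reference sequence and not that of the lines. The first 3 come from AARS (alanyl-tRNA synthetase, chromosome 16), the next 2 from EIF4B (chromosome 12), the next 3 from RARS (arginyl-tRNA synthetase, chromosome 5), and the others from FARSA (chromosome 19), EIF3D (chromosome 22) and EEF2 (chromosome 19).
AARS exon 13 to exon 12: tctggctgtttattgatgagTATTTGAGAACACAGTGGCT
AARS exon 14 to exon 12: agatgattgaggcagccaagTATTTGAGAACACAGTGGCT
AARS exon 11 to exon 10: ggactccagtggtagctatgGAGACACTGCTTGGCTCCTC
EIF4B exon 8 to exon 5: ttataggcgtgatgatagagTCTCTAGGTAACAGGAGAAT
EIF4B exon 8 to exon 7: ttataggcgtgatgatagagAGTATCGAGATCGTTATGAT
RARS exon 5 to exon 2: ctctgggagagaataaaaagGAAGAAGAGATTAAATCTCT
RARS exon 7 to exon 2: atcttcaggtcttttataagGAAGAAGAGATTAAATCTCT
RARS exon 9 to exon 8: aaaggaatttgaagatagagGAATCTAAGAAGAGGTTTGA
FARSA exon 7 to exon 5: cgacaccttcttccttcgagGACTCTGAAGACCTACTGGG
EIF3D exon 9 to exon 8: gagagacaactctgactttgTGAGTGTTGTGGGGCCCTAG
EEF2 exon 4 to exon 4: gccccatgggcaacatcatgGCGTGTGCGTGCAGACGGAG
EEF2 exon 3 to exon 3: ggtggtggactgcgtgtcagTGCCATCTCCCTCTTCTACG
The first AARS pair ends in the same capitals, as do the first RARS pair, so these circles share their upstream exon and differ in the downstream one. The EIF4B pair shares the lower-case stretch, so those circles share exon 8 and differ in where it is joined.

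Of the 68 junctions, 53 matched 1 exon pair, 2 matched several pairs and 13 matched none. In the 10 hosts with more than 1 match, all 41 matched junctions lay at a common distance from the annotated exons. None of the 53 used the first or the last exon of its transcript, and 8 began at exon 2. By the annotation, the interval between the joined ends held a single exon in 4, 2 exons in 27 and 3 or more in 22. With all of those exons kept and the introns removed, the median length would be 295 bases and the range 182 to 1051. Which inner exons or introns a circle held was not measured, and the circles named here by exons are given by their joined ends. Of the 53, 45 lay wholly in coding sequence. The unmatched junctions carried 9.91% of these hosts' reads in PANC-1, 24.9% in SW1990 and 8.89% in HPDE.

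Across the libraries, 1885511 back-splice reads were listed in PANC-1, 1273083 in SW1990 and 1408352 in HPDE, with a median of 6, 10 and 13 reads per circRNA in those lines. Levels are in RPM, reads per mega-read (M) of the library total, and 1 read equalled 0.0273 RPM in PANC-1, 0.0208 in SW1990 and 0.0240 in HPDE. For a junction with 0 reads a limit of 3 reads was used, equal to 0.0818 RPM in PANC-1, 0.0623 in SW1990 and 0.0719 in HPDE. Of the circRNAs listed, 33.1% could be joined to a host in PANC-1, 98.0% in SW1990 and 42.6% in HPDE, because only the SW1990 table names genes. Sums per host are therefore of junctions at or inside SW1990 intervals, which covered a median of 4.45% of the gene (0.357 to 89.7%), and 22 of the 28 hosts had only 1 SW1990 junction. A host at 0 elsewhere had no reads at that place, which does not show that the gene made no circle, and folds of SW1990 over another line lean upward by construction. Of 8 epithelial marker genes, 5 were named hosts, with 0 reads in PANC-1, 38 to 520 reads in SW1990 and 0 to 7 in HPDE. Markers too were counted only at places listed in SW1990, so these reads are no check of the identity of the lines. KRT7, a ductal keratin, had 520 reads in SW1990 and 0 in both PANC-1 and HPDE. Of the mesenchymal markers 1 of 4 was named, ZEB1, with 16, 36 and 0 reads in PANC-1, SW1990 and HPDE, and of the fibroblast markers 1 of 4, COL3A1, with 0, 2 and 0 reads. No immune marker of 3 was named. The part of these differences in the results was not tested.

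The translation hosts together held 817 back-splice reads (22.3 RPM) in PANC-1, 3128 (65.0 RPM) in SW1990 and 1282 (30.7 RPM) in HPDE. All hosts were chosen from SW1990, so its sums lean upward by construction. Of the hosts, 9 had reads in SW1990 only, among them EEF2 (866 reads), EIF6 (550) and EIF4G1 (182). The translation hosts made up 0.0433%, 0.246% and 0.0910% of the back-splice reads of those libraries, and 0.330%, 1.12% and 0.564% of their circRNAs. These shares are of all listed circRNAs, most of which could not be joined to a host in PANC-1 and HPDE. Of the circRNAs joined to any host, those of the translation hosts were 44 of 4411 in PANC-1, 42 of 3689 in SW1990 and 19 of 1434 in HPDE. A few hosts dominated each line. RARS, AARS and FARSA held 51.4% of the hosts' reads in PANC-1, EEF2, EIF6 and FARSA held 62.5% in SW1990, and AARS, FARSA and EIF3D held 65.5% in HPDE. Initiation factor hosts summed to 6.05 RPM in PANC-1, 28.7 in SW1990 and 13.6 in HPDE. Synthetase hosts were nearer to each other, at 13.9, 16.8 and 16.7 RPM. Elongation factor hosts had 18.4 RPM in SW1990 and 0 reads in PANC-1 and HPDE, and entered the set through SW1990.

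**Figure D1:**
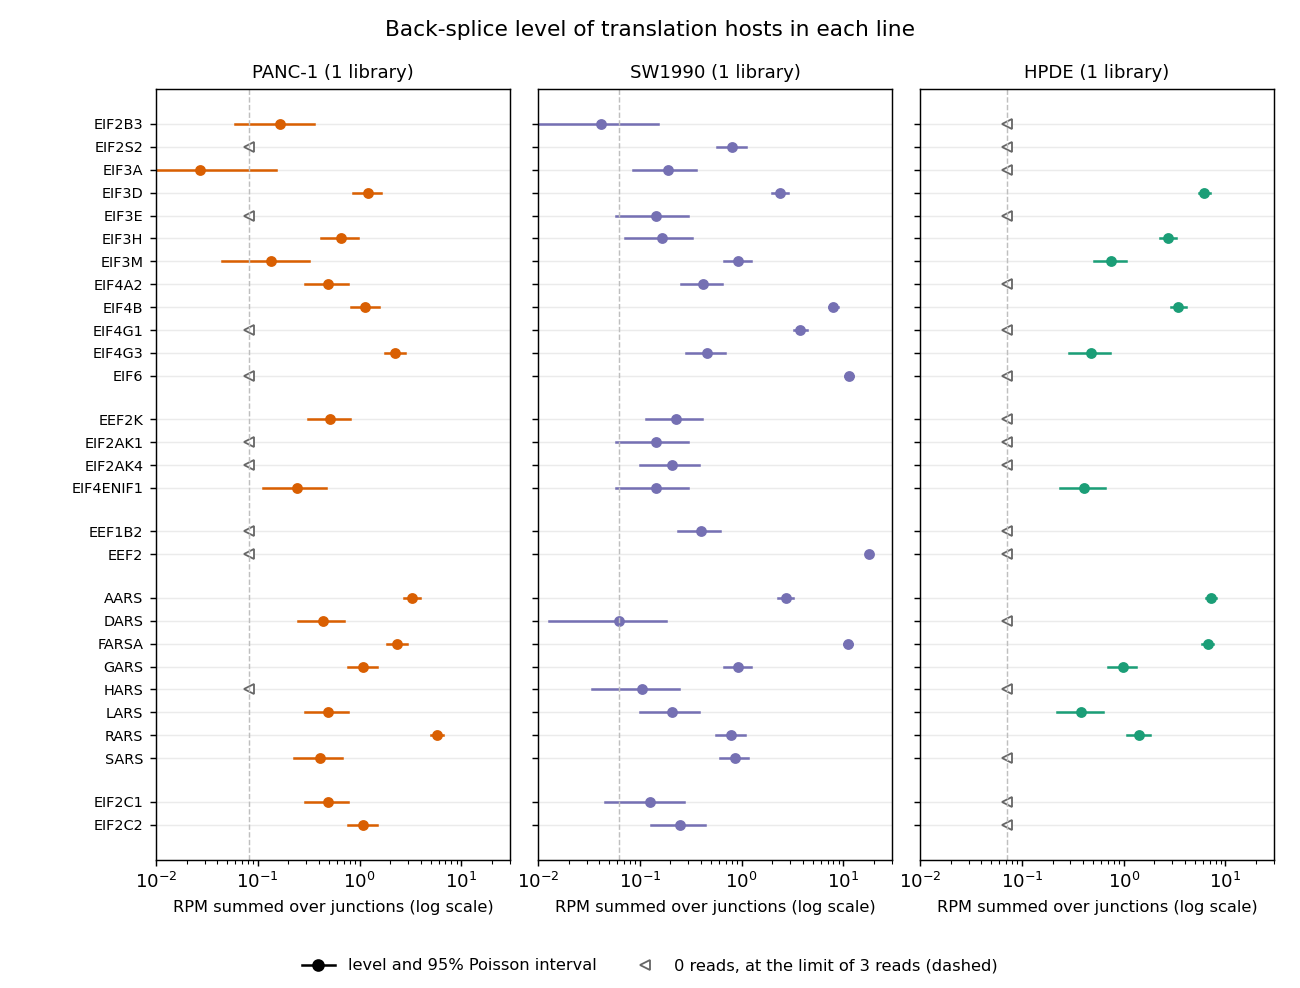
Back-splice level of the 28 hosts in RPM on a log scale, 1 panel per cell line with 1 library each; filled points are sums over junctions with 95% Poisson intervals and open triangles mark 0 reads at the limit of 3 reads (dashed line). Rows are grouped as initiation factors, regulators, elongation factors, synthetases and the Argonaute genes; HPDE has reads in 11 hosts and PANC-1 in 19, and presence in SW1990 was required by the choice of hosts.

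Presence differed by host. Reads in all 3 lines were found for 11 hosts (AARS, EIF3D, EIF3H, EIF3M, EIF4B, EIF4ENIF1, EIF4G3, FARSA, GARS, LARS and RARS). A further 8 had reads in PANC-1 and SW1990 only (DARS, EEF2K, EIF2B3, EIF2C1, EIF2C2, EIF3A, EIF4A2 and SARS), and 9 in SW1990 only (EEF1B2, EEF2, EIF2AK1, EIF2AK4, EIF2S2, EIF3E, EIF4G1, EIF6 and HARS). At the level of junctions, 8 of 68 were listed in all lines, which is 11.8%, against 9.55% of the 6810 junctions of all hosts. Of the 42 SW1990 junctions, 54.8% were also in PANC-1, against 44.4% for all hosts, and 23.8% were also in HPDE, against 23.5%. Hosts with the lowest reads were EIF2B3 (6, 2 and 0 reads in PANC-1, SW1990 and HPDE), EIF3E (0, 7 and 0), EIF2AK1 (0, 7 and 0) and HARS (0, 5 and 0), none of which had the 10 reads over a pair of libraries needed for a comparison.

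PANC-1 was compared with HPDE to ask how circles differ between a PDAC line and the non-tumour line. The threshold for calling a host was a 2-fold difference in RPM. Of the 17 hosts with enough reads, 8 were higher in PANC-1 (47.1%) and 6 were lower (35.3%), while 64.7% of the 1454 hosts compared over the whole series were higher and 13.2% were lower. The median log2 fold of the 17 was 0.36, against 2.02 for all hosts, and it was -0.25, -0.41 and -0.14 under 3 other scalings of the libraries, which shift every log2 fold by -0.61, -0.77 and -0.49. Of the 8 higher calls, 6 rested on 0 reads in HPDE, and a host with at least 10 reads against the limit of 3 was bound to be called. Among the 11 hosts with reads in both lines, 2 were higher and 6 lower and the median log2 fold was -1.15, against 375 higher and 123 lower of 819 hosts and a median of 0.85. No test of these folds is possible with 1 library per line, and the intervals given below cover counting error only. In bulk RNA, fewer cells with a circle and fewer copies per cell cannot be told apart.

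Initiation factor hosts included most of those lower in PANC-1. Of 6 compared, 4 were lower (EIF3D, EIF3H, EIF3M and EIF4B) and 2 higher (EIF4A2 and EIF4G3). Over all hosts 13.2% were lower and 64.7% higher. The EIF3H reads of PANC-1 and HPDE were from different junctions. EIF3D, the eIF3 subunit that can bind the cap of some mRNAs, had 44 reads (1.20 RPM) in PANC-1, 115 (2.39 RPM) in SW1990 and 259 (6.21 RPM) in HPDE. All of these reads were from exon 9 joined to exon 8, chr22:36914810-36915584, the sequence shown above. The PANC-1 level was 5.18-fold lower than that of HPDE (95% interval 3.75 to 7.30). EIF3M, another eIF3 subunit, had 5 reads in PANC-1, 44 in SW1990 and 31 in HPDE, so that its level was 5.45-fold lower in PANC-1 than in HPDE (2.10 to 18.0). EIF4G3, a scaffold protein of the cap-binding complex, had 82 reads (2.24 RPM) in PANC-1, 22 (0.457 RPM) in SW1990 and 20 (0.480 RPM) in HPDE, and its PANC-1 sum was 4.66-fold that of HPDE (2.83 to 8.03). These sums were mostly of different junctions. The EIF4G3 junction listed in both lines, chr1:21295967-21307720, had 2 reads in PANC-1 and 10 in HPDE. It was 4.40-fold lower in PANC-1, with an interval of 0.937 to 41.3 that includes equal levels. EIF4A2, an RNA helicase that unwinds the mRNA leader, had 18 reads in PANC-1, 20 in SW1990 and 0 in HPDE. Against the limit of 3 reads for HPDE, PANC-1 was 6.82-fold higher, and the exact 95% interval of the ratio began at 5.0.

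Among the synthetases in this comparison, DARS, RARS and SARS were higher in PANC-1, AARS and FARSA were lower, and GARS and LARS were within 2-fold. RARS had the most reads of any translation host in PANC-1, with 214 reads (5.84 RPM) against 59 (1.42 RPM) in HPDE, a ratio of 4.13 (3.08 to 5.60). SARS, the seryl-tRNA synthetase, had 15 reads in PANC-1, 41 in SW1990 and 0 in HPDE. DARS, the aspartyl-tRNA synthetase, had 16 reads in PANC-1, 3 in SW1990 and 0 in HPDE. Against the limit for HPDE, the PANC-1 level was at least 5.69-fold higher for SARS and at least 6.07-fold higher for DARS. LARS, the leucyl-tRNA synthetase, had 18 reads in PANC-1 and 16 in HPDE, a ratio of 1.28 (0.616 to 2.68).

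FARSA, the alpha subunit of phenylalanyl-tRNA synthetase, was among the 3 hosts with the most reads in each line, with 86 reads (2.35 RPM) in PANC-1, 538 (11.2 RPM) in SW1990 and 279 (6.69 RPM) in HPDE. It was 2.85-fold lower in PANC-1 than in HPDE (2.23 to 3.68). The 3-exon circle from exon 7 to exon 5, chr19:13039156-13039661, held every FARSA read of SW1990 and HPDE and 72 of those of PANC-1. The remaining 14 PANC-1 reads used the same start and a later end, chr19:13039156-13039750, which matched no annotated exon pair.

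SW1990 was compared with HPDE in the same way. Of 21 hosts, 11 were higher in SW1990 (52.4%) and 4 lower (19.0%), while 61.0% of 1779 hosts were higher and 12.9% lower. The median log2 fold was 1.20, against 1.73 for all hosts. HPDE had 0 reads for 10 of the 11 higher hosts. Among the 11 hosts with reads in both lines, 1 was higher and 4 were lower, with a median log2 fold of -0.84, against 201 higher and 229 lower of 894 hosts and a median of -0.13. Scaling on reads outside the RNase P RNA, ribosomal RNA and mitochondrial loci left 12 higher and 1 lower, with FARSA now higher and AARS, EIF3D and EIF4ENIF1 within 2-fold. Under it 67.1% of all hosts were higher and 7.31% lower, and the median log2 fold was 1.80, against 2.33 for all hosts.

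Several of the largest SW1990 levels were of junctions that the other lines did not list. The SW1990 junctions of FARSA (11.2 RPM) and EIF4B (7.94 RPM) were also among the largest and were listed in all 3 lines. EEF2, the factor that moves the ribosome along the mRNA by a codon, had 866 reads (18.0 RPM; 95% Poisson interval in the plot of levels by line) in SW1990 and 0 in PANC-1 and HPDE. Its reads came from exon 4 closed on itself (chr19:3982805-3983016, 346 reads), exon 3 closed on itself (chr19:3983108-3983289, 348 reads) and a short junction with no matching exon pair (chr19:3979493-3979777, 172 reads). Against the limit, the sum was 250.0-fold higher in SW1990 than in HPDE, with an exact 95% interval that began at 202.9. EIF6, which keeps the ribosomal subunits apart until the large one is mature, had 550 reads (11.4 RPM) at chr20:33867763-33868567 in SW1990 and 0 in the other lines. That junction matched no exon pair. EIF4G1, the main scaffold of the cap-binding complex, had 182 reads (3.78 RPM) at chr3:184035109-184035604 in SW1990 and 0 in the other lines.

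Short junctions held a larger share of these hosts' reads in SW1990. Junctions that spanned under 500 bases of genome held 4.04% of the hosts' reads in PANC-1, 46.9% in SW1990 and 0.156% in HPDE, from 4, 10 and 1 junctions. In SW1990 most of these reads belonged to 3 hosts, EEF2 (866), EIF4B (382) and EIF4G1 (182). EEF2 and EIF4G1 had 0 reads in PANC-1 and HPDE and entered the set through SW1990, so the difference in read share follows in part from the choice of hosts. The share of reads in short junctions over all hosts is not given here. By number, such junctions were 9.09%, 23.8% and 5.26% of the hosts' junctions in PANC-1, SW1990 and HPDE, against 9.0%, 17.0% and 15.5% of all junctions. The median span of the hosts' junctions was 4327 bases in PANC-1, 1274 in SW1990 and 1515 in HPDE, against 6231, 3052 and 2938 bases for all junctions of those libraries. Whether a filter on span or size differed between the authors' tables was not tested.

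Other initiation and elongation hosts of SW1990 had lower levels. EIF2S2, the beta subunit of eIF2, had 39 reads in SW1990 and 0 elsewhere, at least 11.3-fold higher than in HPDE. EEF1B2, the exchange factor that recharges eEF1A, had 19 reads in SW1990 and 0 elsewhere, 5.49-fold above the limit for HPDE (from 4.04). Both genes have processed pseudogenes, and how reads with several matches were treated is not given in the sources used here. EIF3D was 2.60-fold lower in SW1990 than in HPDE (2.08 to 3.27). EIF3H, an eIF3 subunit, had 24 reads (0.655 RPM) in PANC-1, 8 (0.166 RPM) in SW1990 and 114 (2.73 RPM) in HPDE. Relative to HPDE, the PANC-1 level was 4.18-fold lower (2.67 to 6.79) and the SW1990 level 16.5-fold lower (8.07 to 39.0). All 114 HPDE reads were from 1 junction with 0 reads in both PDAC lines, chr8:117737148-117738411, which had no matching exon pair. FARSA was within 2-fold between SW1990 and HPDE, at a ratio of 1.67 (1.44 to 1.94), but past the threshold, at log2 folds of 1.09 and 1.34, with scaling on total back-splice reads and on those outside the abundant loci. GARS, LARS, RARS, EIF3M and EIF4G3 were also within 2-fold. Of these, RARS was at a log2 fold of 2.46 and EIF4G3 at 4.25 (22 reads in SW1990 and 1 in HPDE) when only junctions listed in SW1990 were counted, which leaves out the main HPDE junctions of both genes.

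The regulators had few reads. EEF2K, the kinase that phosphorylates and inhibits eEF2, had 19 reads in PANC-1, 11 in SW1990 and 0 in HPDE, all from exon 2 closed on itself. Relative to the limit for HPDE, PANC-1 was at least 7.20-fold higher and SW1990 at least 3.18-fold higher. EIF2AK4, the amino acid sensor GCN2, had 10 reads in SW1990 and 0 elsewhere. EIF4ENIF1, which binds eIF4E and represses cap-dependent translation, had 9 reads in PANC-1, 7 in SW1990 and 17 in HPDE. Its sum was 2.80-fold lower in SW1990 than in HPDE (1.10 to 8.0), but the reads were of different junctions. All SW1990 reads were from exon 6 closed on itself (chr22:31858918-31859119), which had 0 reads in HPDE. All HPDE reads were from exon 8 joined to exon 6 (chr22:31851838-31859119), which had 0 reads in SW1990. Of the Argonaute genes, EIF2C2 had 40 reads in PANC-1, 12 in SW1990 and 0 in HPDE, and EIF2C1 had 18, 6 and 0.

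**Figure D2:**
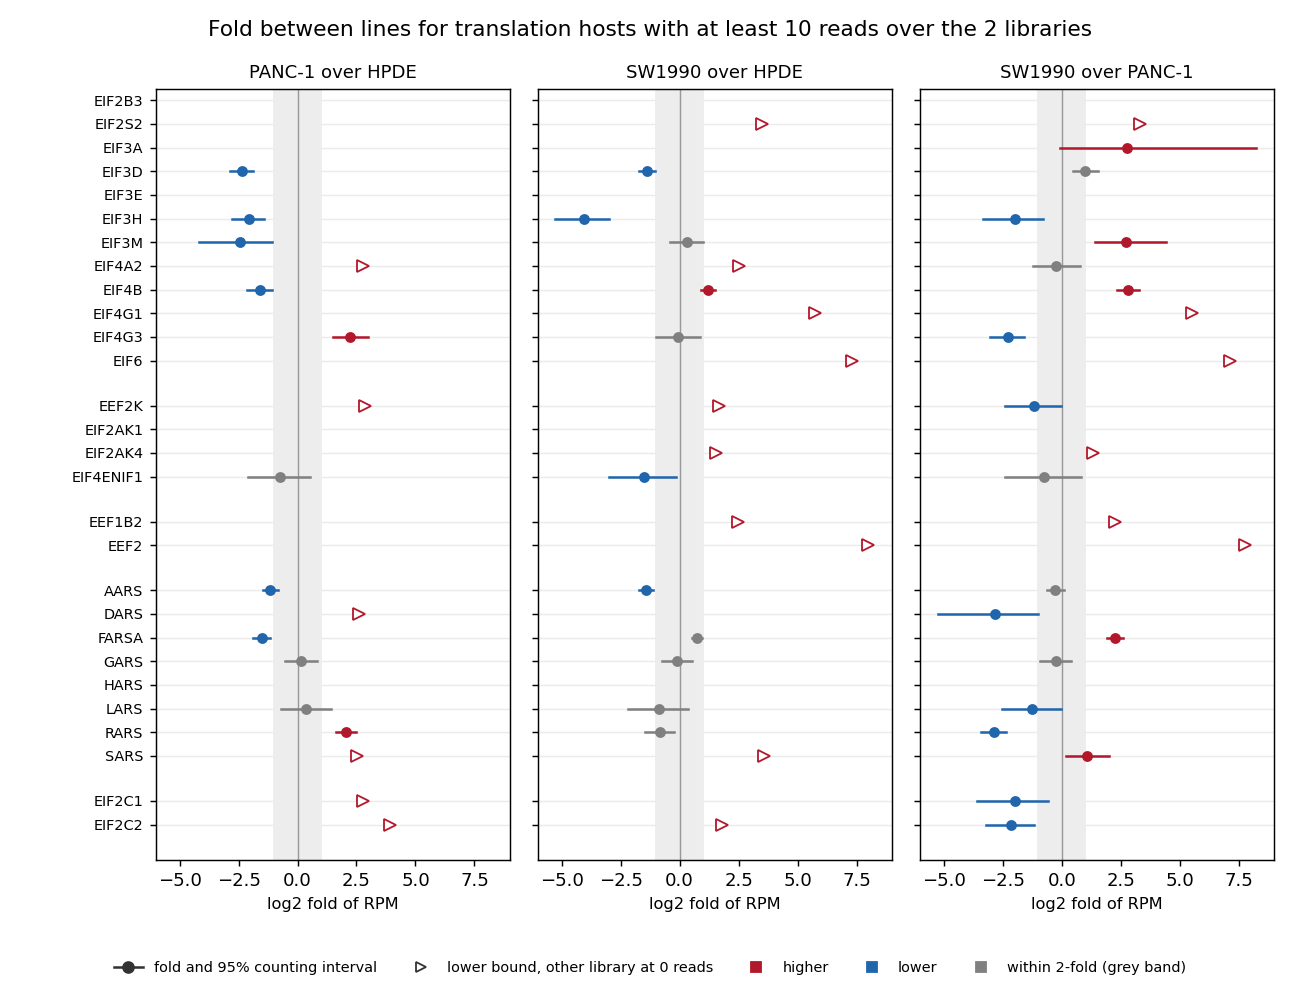
Log2 fold of RPM for hosts with at least 10 reads over the 2 libraries compared, in 3 panels (PANC-1 over HPDE, SW1990 over HPDE, SW1990 over PANC-1). Points carry 95% counting intervals and the grey band marks folds under 2. Open triangles take a library at 0 reads as 3 reads and leave out counting error in the other library. EIF3D, EIF3H and AARS lie below 0 in both panels over HPDE, which share the HPDE library. EIF4B lies on opposite sides. With scaling on reads outside the abundant loci, AARS and EIF3D were inside the band in SW1990 over HPDE, at -0.81 and -0.78.

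SW1990 was also compared with PANC-1, to ask how far the PDAC lines differ from each other. Of 24 hosts, 11 were higher in SW1990 (45.8%) and 8 lower (33.3%), while 33.7% of 2017 hosts were higher and 34.1% lower. The median log2 fold was 0.38, against -0.17 for all hosts. For 6 of the 11 higher hosts PANC-1 had 0 reads; among the 18 hosts with reads in both lines, 5 were higher and 8 lower, with medians of -0.51 for these and -0.81 for the 1540 hosts of the series. With scaling on reads outside the abundant loci the split was 15 higher and 2 lower, where 53.6% of all hosts were higher and 13.2% lower, and the median log2 fold was 1.75, against 1.20 for all hosts.

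Of 10 initiation factor hosts compared between these lines, 6 were higher in SW1990 (EIF2S2, EIF3A, EIF3M, EIF4B, EIF4G1 and EIF6) and 2 lower (EIF3H and EIF4G3). Over all hosts 33.7% were higher and 34.1% lower. PANC-1 had 0 reads for EIF2S2, EIF4G1 and EIF6, whose calls were bound to be higher by the choice of hosts from SW1990 and the limit. EIF3M was 6.70-fold higher (2.67 to 21.7). EIF3A, the largest eIF3 subunit, had 9 reads in SW1990 and 1 in PANC-1, a ratio of 6.86 whose interval of 0.950 to 300.5 includes equal levels. EIF3D was just inside the threshold, at 1.99-fold (1.4 to 2.89), and past it under the other scalings, at log2 folds of 1.71 to 2.36. EIF4G3 was 4.89-fold lower in SW1990 (3.03 to 8.23) and EIF3H 3.94-fold lower (1.71 to 10.1). Both were within 2-fold, at log2 folds of -0.92 and -0.61, with scaling on reads outside the abundant loci, which left no initiation host lower and 8 higher. The EIF4G3 junctions were spread over 12 exon pairs or intervals, with 9 listed in PANC-1. The PANC-1 junction of EIF4G3 with the most reads, exon 16 to exon 14 (chr1:21219112-21221994, 36 reads), had 0 reads in SW1990 and HPDE.

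Synthetase hosts split in this comparison. FARSA was 4.77-fold higher in SW1990 than in PANC-1 (3.79 to 6.06) and SARS 2.08-fold higher (1.13 to 4.05). RARS was 7.39-fold lower (5.22 to 10.7), DARS 7.0-fold lower (2.0 to 37.5), and LARS 2.36-fold lower (1.03 to 5.73). RARS and DARS stayed below 0 under each scaling, whereas LARS was at a log2 fold of 0.13 with scaling on reads outside the abundant loci, as EEF2K, 2.27-fold lower in SW1990 (1.03 to 5.28), was at 0.19, and both were within 2-fold under each of the other scalings. EIF2C2 was 4.38-fold lower in SW1990 than in PANC-1 (2.25 to 9.16) and EIF2C1 3.94-fold lower (1.5 to 12.1), and both were within 2-fold under that scaling. Counted over SW1990 junctions with identical coordinates alone, a choice that leaves out PANC-1 junctions by construction, 4 of the lower hosts had log2 folds above 0. These were 0.19 for EIF2C1 (6 reads in SW1990 and 4 in PANC-1, ratio 1.14, 0.271 to 5.51), 2.19 for EIF2C2 (12 and 2 reads, ratio 4.57, 1.02 to 42.0), 0.61 for EIF3H and 0.37 for EIF4G3, of which only EIF2C2 was past 2-fold.

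The junctions that carried the reads differed between lines in AARS, EIF4B, GARS and RARS, which were picked out after their values had been seen. AARS had 120 reads (3.27 RPM) in PANC-1, 131 (2.72 RPM) in SW1990 and 302 (7.24 RPM) in HPDE, and relative to HPDE its sum was 2.21-fold lower for PANC-1 (1.79 to 2.76) and 2.66-fold lower for SW1990 (2.16 to 3.29). The circle of exons 12 and 13, chr16:70294947-70296427, had 7 reads in PANC-1, 4 in SW1990 and 236 in HPDE. These were 5.83% (Clopper-Pearson 95% interval 2.38 to 11.7), 3.05% (0.838 to 7.63) and 78.1% (73.1 to 82.7) of the AARS reads of those lines. The circle of exons 12 to 14, chr16:70292883-70296427, had 91 reads in PANC-1, 91 in SW1990 and 0 in HPDE. Its share of the AARS reads was 75.8% for PANC-1 (67.2 to 83.2), 69.5% for SW1990 (60.8 to 77.2), and 0 of 302 reads for HPDE (0 to 1.21). The PDAC lines thus joined exon 12 mainly to exon 14 and HPDE to exon 13, within a transcript of 21 exons. A further HPDE circle, of exons 10 and 11 (chr16:70298861-70299565), had 2 reads in PANC-1, 2 in SW1990 and 66 in HPDE. The circle of exons 8 to 13 had 15 reads in PANC-1, 31 in SW1990 and 0 in HPDE.

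EIF4B, an RNA-binding protein that stimulates the eIF4A helicase, had 42 reads (1.15 RPM) in PANC-1, 382 (7.94 RPM) in SW1990 and 144 (3.45 RPM) in HPDE. Relative to HPDE its sum was 3.02-fold lower for PANC-1 (2.13 to 4.36) and 2.30-fold higher for SW1990 (1.89 to 2.80). The 4-exon circle of exons 5 to 8, chr12:53415590-53421972, had 34 reads in PANC-1, 0 in SW1990 and 142 in HPDE. The 2-exon circle of exons 7 and 8, chr12:53421566-53421972, had 8 reads in PANC-1, 382 in SW1990 and 2 in HPDE. All EIF4B reads of SW1990 were from the smaller circle, against 19.0% in PANC-1 (8.60 to 34.1) and 1.39% in HPDE (0.169 to 4.93). The direction of the sum followed the junction counted: the smaller circle was 165.4-fold higher in SW1990 than in HPDE (45.5 to 1371), and the larger one was at least 54.6-fold lower. Without junctions under 500 bases, the EIF4B log2 fold of SW1990 over HPDE was -5.77 in place of 1.20. On the smaller circle alone, that of PANC-1 over HPDE was 2.19 in place of -1.59. It rests on 8 and 2 reads, a ratio of 4.55 whose interval of 0.908 to 44.0 includes equal levels.

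RARS circles began at exon 2 or exon 8 in most reads. The circle of exons 2 to 5, chr5:167915607-167921655, had 106 reads in PANC-1, 27 in SW1990 and 6 in HPDE, which were 49.5% (42.7 to 56.4), 71.1% (54.1 to 84.6) and 10.2% (3.82 to 20.8) of the RARS reads. The circle of exons 2 to 7, chr5:167915607-167924353, had 79 reads in PANC-1, 0 in SW1990 and 34 in HPDE. Exon 8 was joined to a different partner in each line: exon 12 in PANC-1 (25 reads), exon 14 in SW1990 (4 reads) and exon 9 in HPDE (19 reads), and none of these junctions was listed in another line. RARS thus had 7 junctions in all, and only that of exons 2 to 5 was listed in every line.

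GARS, the glycyl-tRNA synthetase, had near-equal sums, with 40 reads (1.09 RPM) in PANC-1, 44 (0.914 RPM) in SW1990 and 41 (0.983 RPM) in HPDE. All SW1990 and HPDE reads were from exons 11 and 12, chr7:30661009-30662078, which had 0 reads in PANC-1. All PANC-1 reads were from a longer junction with the same start, chr7:30661009-30662359, which had 0 reads in SW1990 and HPDE and matched no exon pair. A sum of reads per gene does not show this exchange.

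**Figure D3:**
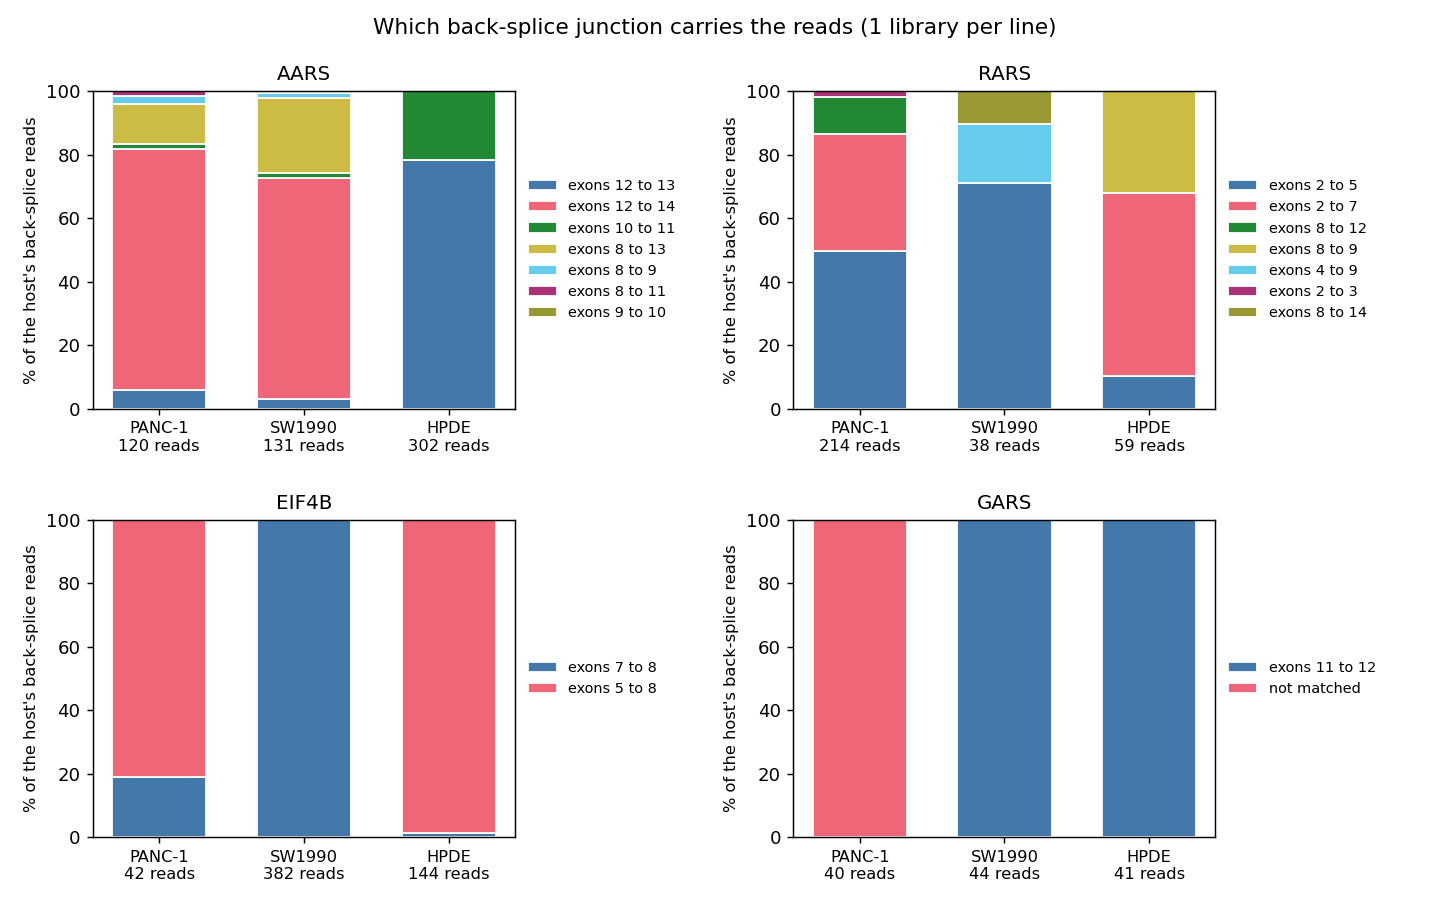
Share of back-splice reads in percent held by each junction of AARS, RARS, EIF4B and GARS, with 1 bar per library and the reads of the host under each bar. Colours name the exons of the circle, or a junction not matched to exons. In AARS the PANC-1 and SW1990 bars are mostly exons 12 to 14 and the HPDE bar mostly exons 12 to 13, and in EIF4B the SW1990 bar is entirely exons 7 to 8.

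Such exchanges were also present in other hosts of the series. Of the translation hosts with at least 10 reads in both lines, the junction with the most reads was the same in 4 of 9 between PANC-1 and HPDE, in 5 of 9 between SW1990 and HPDE, and in 8 of 12 between SW1990 and PANC-1. These were 44.4%, 55.6% and 66.7% of a few hosts each. Over all hosts the shares were 48.8% of 621, 55.6% of 653 and 51.8% of 1040 hosts. These shares include hosts with a single junction in the pair of lines, for which the top junction is the same by construction. Of the translation hosts with 2 or more junctions, the top one differed in 5 of 8, 4 of 6 and 4 of 8 in those comparisons. Over all hosts with 2 or more it differed in 318 of 493, 290 of 450 and 501 of 813. Junction by junction, 18 of 30 were higher and 11 lower in PANC-1 than in HPDE, where 66.2% of all junctions of named hosts were higher and 21.7% lower. Between SW1990 and HPDE 17 of 30 were higher and 9 lower, where 63.3% of all were higher and 21.9% lower. Between SW1990 and PANC-1 16 of 37 were higher and 17 lower, where 40.0% were higher and 42.3% lower.

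Neighbouring genes of the pathway were read from a list of 68 that act beside these factors: release and recycling factors, poly(A)-binding and helper proteins, mTOR and stress-response genes, and the synthetase complex and mitochondrial factors. SW1990 named 17 of them as hosts and 12 had enough reads. Between PANC-1 and HPDE 6 of these were higher and 2 lower (median log2 fold 1.51), between SW1990 and HPDE 7 were higher and 3 lower (1.41), and between SW1990 and PANC-1 2 were higher and 4 lower (-0.37). The shares of all hosts called in these comparisons were 64.7% higher and 13.2% lower, 61.0% and 12.9%, and 33.7% and 34.1%. GCN1L1, which activates the kinase GCN2, had more reads than most hosts of the translation factors: 677 (18.5 RPM) in PANC-1, 523 (10.9 RPM) in SW1990 and 533 (12.8 RPM) in HPDE. It was within 2-fold in each comparison. RHEB, the GTPase that switches on mTOR complex 1, had 183 reads in PANC-1, 42 in SW1990 and 8 in HPDE. TSC2, which holds RHEB inactive, had 44, 145 and 0 reads in those lines, and LARP1, an mTOR-regulated repressor of mRNAs for ribosomal proteins, had 75, 110 and 0. PABPC1, the cytoplasmic poly(A)-binding protein, had 130 reads in PANC-1, 24 in SW1990 and 0 in HPDE. The mitochondrial synthetases TARS2 and NARS2 had fewer reads in the PDAC lines, with 15 and 9 in PANC-1, 28 and 13 in SW1990, and 54 and 27 in HPDE. In RPM both were lower in each PDAC line than in HPDE. In SW1990 over HPDE their median log2 fold was -1.21. Scaling on reads outside the abundant loci shifts it by 0.60, which puts both within 2-fold there.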

How the data were processed

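RNA from 3 cell lines was sequenced as 1 library per line, from total RNA with a NEBNext Ultra kit per the labels' protocols. Per the submitters' processing notes, TopHat2, TopHat and HTSeq were used on hg19; versions are not stated, and which program called circRNAs, with which filters, is not given in the sources used here. Per the file headers, the deposited PANC-1 and HPDE values are RPM, and the deposited SW1990 table holds the back-splice read count, the RPM and a host symbol. RPM values were whole multiples of 1 read within 0.05 reads in 100% of cases, so reads were recovered; the implied library totals were 36.7 M (PANC-1), 48.1 M (SW1990) and 41.7 M (HPDE) reads, M for mega. The PANC-1 and HPDE tables each had 1 emptied line, not analysed here.

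Reads of the junctions joined to a host were summed. Hosts or junctions with at least 10 reads over both libraries were compared by the fold of RPM, called at 2-fold. A library at 0 was set to 3 reads, so that its fold is set against that limit and leaves out counting error in the other library. Intervals are 95% and exact (Poisson, Clopper-Pearson or conditional binomial). They cover counting error only, since reads without molecular identifiers are not independent molecules. An exact conditional binomial test on the recovered reads (two-sided, Benjamini-Hochberg over all hosts, adjusted p under 0.05 with the fold) compares libraries, not conditions. For PANC-1 and HPDE it called 921 hosts higher and 185 lower, for SW1990 and HPDE 1052 higher and 209 lower, and for SW1990 and PANC-1 633 higher and 621 lower. Both procedures were tested on simulated data.

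The hosts, lists and comparisons were chosen with earlier results of these data known. Named hosts are the 10 with the highest RPM in any line and, per comparison, the 8 highest and 8 lowest among those called; the other hosts are given by their reads. Exons were matched by span to GENCODE release 29 transcripts, with no conversion of coordinates. Python 3.11.15, pandas 2.3.3, NumPy 2.4.6, SciPy 1.17.1 and matplotlib 3.10.9 were used.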

Additional observations from a re-analysis of the deposited data

Results flagged for a closer look

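EIF4B was the translation host called in opposite directions against HPDE. Its log2 fold was -1.59 for PANC-1 over HPDE and 1.20 for SW1990 over HPDE. Both folds use the same HPDE library, each line has 1 library, and the difference between the folds was not tested. In SW1990 all 382 EIF4B reads were from the circle of exons 7 and 8, whereas 34 of 42 reads in PANC-1 and 142 of 144 in HPDE were from that of exons 5 to 8.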

How the results depend on the processing

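With at least 20 reads required in place of 10, the hosts called in PANC-1 against HPDE were 9 in place of 14, and the junctions called were 15 in place of 29 (PANC-1 against HPDE), 17 in place of 26 (SW1990 against HPDE) and 21 in place of 33 (SW1990 against PANC-1); fewer features pass that filter. In the other 59 combinations of a comparison and a setting, the number called stayed within 1.5 times that reported. Hosts called at 2-fold changed sign in 9 cases, and hosts within 2-fold did so in 28. With identical junctions only, the log2 fold was 2.19 for EIF4B in PANC-1 over HPDE, from 8 and 2 reads with an interval that includes equal levels. In SW1990 over PANC-1 it was 0.19 for EIF2C1, 2.19 for EIF2C2, 0.61 for EIF3H and 0.37 for EIF4G3. Among hosts within 2-fold, the same choice put GARS at -3.59 in PANC-1 over HPDE and 3.48 in SW1990 over PANC-1, and RARS at 2.46 and EIF4G3 at 4.25 in SW1990 over HPDE. Without junctions under 500 bases, EIF4B was at -5.77 in SW1990 over HPDE and -3.90 in SW1990 over PANC-1. With scaling on reads outside the RNase P RNA, ribosomal RNA and mitochondrial loci, EEF2K was at 0.19 and LARS at 0.13 in SW1990 over PANC-1, and AARS, GARS and EIF4A2, within 2-fold in RPM, at 1.10, 1.11 and 1.13. The scalings on total back-splice reads, on reads outside those loci and on the median of ratios shift log2 folds by -0.61, -0.77 and -0.49 in PANC-1 over HPDE, 0.35, 0.60 and 0.22 in SW1990 over HPDE, and 0.96, 1.37 and 0.71 in SW1990 over PANC-1. The exact conditional binomial test with Benjamini-Hochberg adjustment kept the translation hosts called against HPDE and did not call EEF2K, EIF3A and LARS in SW1990 against PANC-1. No paired analysis was possible because each line has 1 library, and for the same reason no library could be left out. Depth limits hosts under about 10 reads, where the counting intervals span several-fold.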
